A study of Rattus norvegicus with 13 samples.

Results

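The embryos and the sperm of the DDT lineage were compared here by their DNA methylation signal over every autosomal 1 kb window of the rat genome, that is, over chromosomes 1 to 20. These are 2618741 of the 2782040 windows deposited, and they were chosen by position alone, with no measured value. The assay was MeDIP-seq (methylated DNA immunoprecipitation with sequencing), which pulls down DNA fragments by means of an antibody against 5-methylcytosine. The series holds 13 libraries, of which 7 belong to this lineage: 3 from pools of morulae and 4 from sperm. All rats were of the outbred strain Hsd:Sprague Dawley SD. Gestating females of generation F0 were injected with the insecticide DDT on embryonic days 8 to 14, and no later generation was treated. Sperm came from the cauda epididymis of males of generation F3, whose animals were aged to 1 year. Morulae, embryos of the cleavage period just before the blastocyst, were produced by intracytoplasmic sperm injection (ICSI) of this sperm into eggs from superovulated donors and grown in culture. The donors were Sprague Dawley females of 6 to 12 weeks, for which the labels give no exposure. The control lineage, whose F0 females received the vehicle DMSO on the same days, has 3 morula and 3 sperm libraries and is used below only to form classes and for comparison.

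In mammals the genome of mature sperm is densely methylated outside CpG-rich stretches. After fertilisation most of this methylation is removed from the paternal genome, and that of the maternal genome is diluted over the cleavage divisions, so that the morula lies near the low point of methylation in development. Imprinted regions and some classes of repeats are known to keep methylation through this period. A morula carries a maternal genome beside the one that the sperm brought, and its MeDIP signal covers both.

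A window's signal is given as CPM, counts per 1000000 counts of its library, so it is a share of what was pulled down. A library poor in methylation overall is scaled to the same total as a rich one. A higher value in morulae therefore means a larger share of the precipitated DNA, and an absolute gain or loss of methylation cannot be told apart from a change in the rest of the genome. Counts ranged from 37842198 to 40787673 per library in morulae and from 33684143 to 128386419 in sperm. Sperm replicate 4, the shallowest, stood apart from the other sperm libraries: 11.0% of its autosomal windows held no count, against 5.46% to 5.85%. At equal depth these shares were closer, at 11.8% against 9.69% to 10.4%. Across windows, log CPM correlated at 0.933 to 0.941 among sperm replicates 1 to 3, at 0.745 to 0.791 between these and replicate 4, at 0.660 to 0.672 among morulae, and at 0.461 to 0.530 between morulae and sperm. Over 100 kb bins replicate 4 was nearer to the morulae (0.688 to 0.720) than replicates 1 to 3 were (0.518 to 0.592). No label says that replicates came from separate animals, so p-values measure the spread between these libraries, which may be technical.

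The morula signal differed from the sperm signal over a large part of the autosomes, in both directions. Of 2368152 windows tested with edgeR's quasi-likelihood test, 438689 (18.5%) were higher and 403970 (17.1%) lower in morulae at a Benjamini-Hochberg adjusted p under 0.05. The typical higher window rose from a median of 0.0807 CPM in sperm to 0.307 CPM in morulae. The typical lower window fell from 0.714 to 0.317 CPM. Windows on either side of the genome's median of 0.256 CPM in sperm thus came to nearly the same level in the embryo, where the median of all windows was 0.287 CPM. The higher and lower windows were called from these same counts, so their levels are a description. At least 2-fold differences were shown by 412635 of the higher and 347404 of the lower windows, and at least 4-fold differences by 143078 and 17635. The numbers in both directions fell when any 1 of morula replicates 1 to 3 or sperm replicates 1 to 3 was left out, which also leaves fewer libraries to test. Without morula replicate 1, 2 or 3, 253783, 233862 and 232159 windows were lower and 319493, 299921 and 297148 higher. Without sperm replicate 1, 2 or 3, 291665, 317272 and 362676 were lower and 359134, 374085 and 401225 higher. Without sperm replicate 4 both numbers rose, to 518094 lower and 555675 higher. With an offset that removes each library's trend with abundance, 172188 windows were higher and 97617 lower, so that 63.8% of calls were higher against 52.1% without it. Scaling by library size in place of TMM moved the median log2 difference from -0.02 to 0.10. The authors' deposited table has 258087 autosomal windows higher and 253791 lower at its adjusted p under 0.05.

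The embryo's profile was flatter than that of sperm, above all at its low end. For this comparison the libraries were thinned to the depth of the smallest one, and counts were summed over 233256 blocks of 10 kb in which each 1 kb window held a count in at least 1 of the 13 libraries. In morula replicates 1 to 3, 80.8%, 84.1% and 84.1% of blocks lay within 1.5-fold of the library's median. In sperm replicates 1 to 4 the shares were 54.0%, 54.6%, 58.1% and 53.1%, so the groups did not overlap. The means were 83.0% ± 1.93 (SD, n = 3) and 54.9% ± 2.17 (n = 4), with p = 0.0286 in a two-sided exact permutation test, the smallest p that 3 against 4 libraries can give (adjusted p = 0.0286 over 5 measures). Blocks more than 1.5-fold below the median made up 4.84% ± 0.561 in morulae and 23.5% ± 0.727 in sperm. Blocks more than 1.5-fold above it made up 12.2% ± 1.37 and 21.5% ± 1.48. The block at the 90th percentile exceeded that at the 10th by 2.25 ± 0.172 times in morulae and 4.08 ± 0.360 times in sperm. Without sperm replicate 4 the sperm mean of this ratio was 3.93 ± 0.233. The highest blocks were not flattened: the block at the 99th percentile stood at 6.25, 4.94 and 4.78 times the median in morulae and at 3.43, 3.35, 3.19 and 4.76 times in sperm, with sperm replicate 4 close to the morulae.

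**Figure D1:**
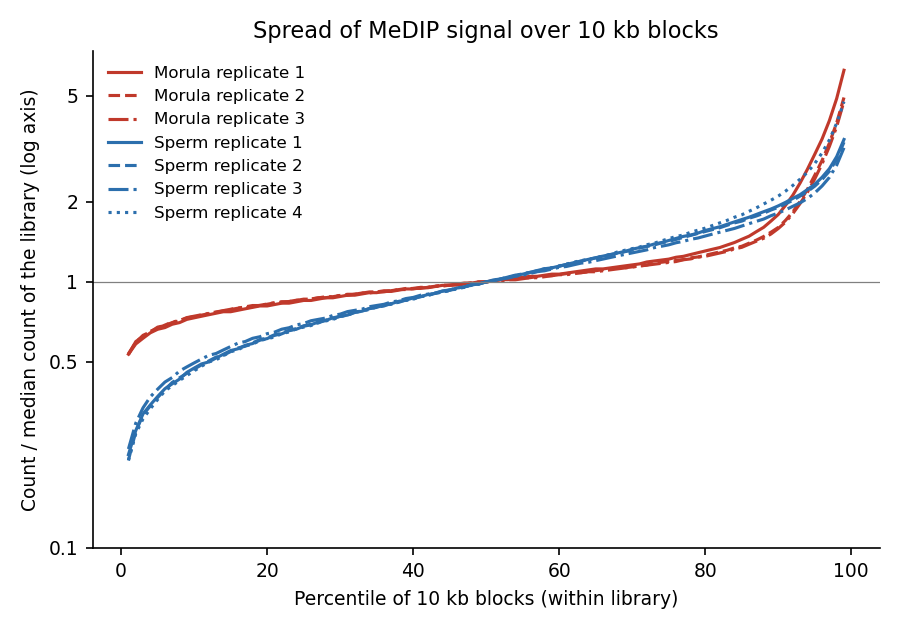
Count of 10 kb blocks divided by the library's median (log axis), by percentile of blocks, for 3 morula libraries (red) and 4 sperm libraries (blue) of the DDT lineage at equal depth, 1 line per library. The red lines stay close to 1 over most of the range and the blue lines spread from it on both sides, while at the 99th percentile the red lines reach 4.78 to 6.25.

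To follow retention, loss and gain, each window was called high at 2 times or more and low at 0.5 times or less of the median window, in sperm and in morulae, from the mean CPM of the group. In sperm 609203 windows (23.3%) were high and 758202 (28.95%) low. In morulae 227941 (8.70%) were high and 289882 (11.1%) low. Of the windows high in sperm, 178512 (29.3%) were also high in morulae and are called kept. Another 428646 (70.4%) were in the middle range in morulae, and 2045 (0.336%) were low there and are called lost. Of the windows low in sperm, 513667 (67.7%) were in the middle range in morulae, 239867 (31.6%) stayed low and 4668 (0.616%) were high and are called gained. Of the windows low in both, 108632 held no count in any of the 7 libraries. Seen from the embryo, 78.3% of the windows high in morulae were already high in sperm, 19.6% came from the middle range and 2.05% from the low range. In the control lineage 28.0% of windows high in sperm were kept, 0.191% lost, and 0.472% of those low in sperm gained.

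**Figure D2:**
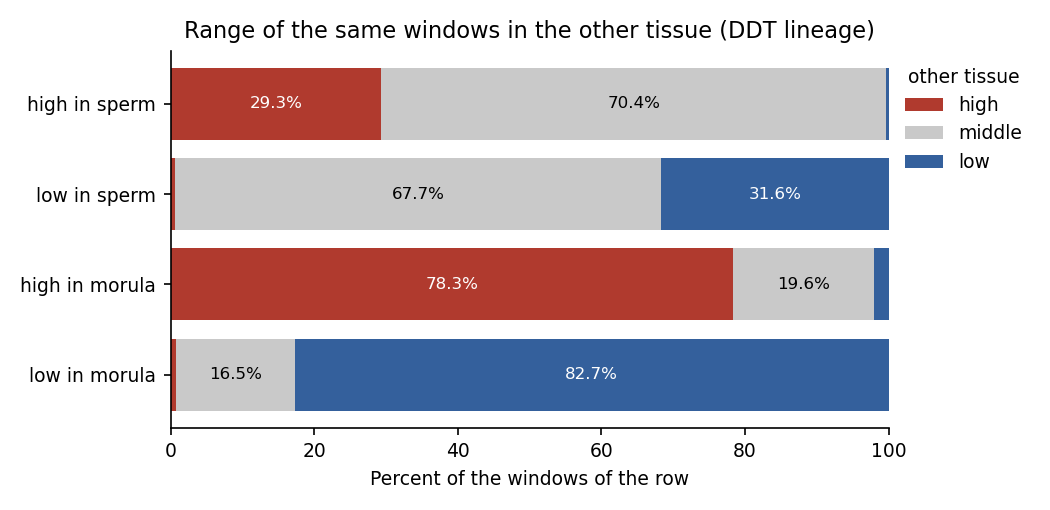
Windows high or low in one tissue of the DDT lineage, divided by their range in the other tissue (bars in percent of the windows of each row). Most windows high or low in sperm are in the middle range in morulae (70.4% and 67.7%), whereas 78.3% of those high and 82.7% of those low in morulae had the same range in sperm.

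Of these 4 fates, kept windows had the largest share in common with the control lineage. This order takes no account of how common each fate is. Of windows kept in the control lineage, 86.4% were also kept here, against 6.82% of all autosomal windows. Of the 178512 kept windows, 81.0% were also kept in the control lineage, which shares no library with this one, and 61.4% had a kept window beside them. The rule was met by the value of every library in 67.3%. Windows that the control lineage had kept had, in the DDT lineage, 1.64, 1.42 and 1.39 CPM in morula replicates 1 to 3 and 1.34, 1.32, 1.28 and 1.62 CPM in sperm replicates 1 to 4. The 2 groups overlapped, and the median log2 difference over these windows was -0.03. Of them 16.3% passed the test as higher and 23.8% as lower in morulae, against 18.5% and 17.1% of all windows.

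Lost windows were few, and most were not the same in both lineages. Of windows lost in the control lineage, 5.07% were also lost here, against 0.0781% of all autosomal windows. Of the 2045 lost windows of the DDT lineage, 58 (2.84%) were also lost in the control lineage. Of the same 2045, 101 met the rule in every library, and 0.196% had another lost window beside them. The number rose when any 1 morula library was left out, to 4538, 5321 and 5221 without morula replicate 1, 2 or 3. It was 1620 without sperm replicate 4. Windows lost in the control lineage, 1143 in number, fell less far when measured in the DDT lineage. They had 0.200, 0.226 and 0.223 CPM in morulae and 0.494, 0.465, 0.414 and 0.561 CPM in sperm, with no overlap. Of these windows 66.5% were lower past the test and 0 higher, against 17.1% and 18.5% of all tested windows. Their median log2 difference was -1.24, against -2.32 over the 2045 windows chosen by the DDT lineage's own values.

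Gained windows were more often shared than lost ones, and more often lay beside one of the same fate. In both respects they came below kept windows. Of windows gained in the control lineage, 63.3% were also gained here, against 0.178% of all autosomal windows. Of the 4668, 46.6% were also gained in the control lineage, 32.8% had a gained window beside them, and 1079 met the rule in every library. The 3437 windows gained in the control lineage had 0.838, 0.780 and 0.766 CPM in DDT morulae and 0.103, 0.103, 0.116 and 0.0821 CPM in DDT sperm. In the DDT lineage 99.1% of them were higher past the test, against 18.5% of all tested windows, at a median log2 difference of 2.86. The 2 large ranges that moved to the middle showed the same order of size. Windows high in control sperm and middle in control morulae had a median of -1.08 here (64.3% lower past the test). Those low in control sperm and middle in control morulae had a median of 1.46 (62.1% higher, of the 86.9% that held enough counts to be tested). Over all tested windows 17.1% were lower and 18.5% higher.

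At the scale of 10 kb, where counting error is smaller, the embryo differed from sperm far more at the low end than at the high end. High blocks made up 8.16% of the 233256 blocks in sperm and 7.52% in morulae. Low blocks made up 10.0% in sperm and 0.399% in morulae. Of the 19040 blocks high in sperm, 10415 (54.7%) were kept, 45.3% were in the middle range in morulae and 0 were lost. Of the kept blocks, 9741 were also kept in the control lineage. Of the 23423 blocks low in sperm, 96.0% were in the middle range in morulae and 85 were gained, 45 of them in the control lineage too. Leaving out 1 library at a time gave 9295 to 10879 kept, 71 to 101 gained and 0 lost blocks.

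The kept windows named here are those with the highest CPM in their lowest library, after the 0.1% of windows with the highest counts were left out. Lost and gained windows were named without this step. Positions are in Rnor_6.0, and no gene annotation of that build was used here. The window at 87857001 to 87858000 of chromosome 8 had 3.81, 3.19 and 3.20 CPM in morulae and 3.23, 3.15, 3.20 and 4.72 CPM in sperm. The groups overlapped, with sperm replicate 4 highest. The log2 difference was -0.20 (SE 0.28, edgeR adjusted p = 0.604), though with the abundance-trend offset it was -0.50 and passed the test. At 12073001 to 12074000 of chromosome 7, morulae had 4.52, 3.53 and 3.52 CPM and sperm 3.25, 3.15, 3.13 and 4.45 CPM, a log2 difference of 0.02 (SE 0.27). At 37352001 to 37353000 of chromosome 1, morulae had 4.39, 3.41 and 4.12 CPM and sperm 3.25, 3.07, 3.08 and 3.98 CPM, a log2 difference of 0.12 (SE 0.27). All 3 windows thus stood more than 10 times above the median window in each library of both tissues.

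The lost windows named are those with the widest gap between the lowest sperm library and the highest morula library. At 136981001 to 136982000 of chromosome 6, morulae held 1, 4 and 5 counts and sperm 122, 99, 119 and 55 counts. That is 0.0831 ± 0.0509 CPM (SD, n = 3) against 1.15 ± 0.331 CPM (n = 4), a log2 difference of -3.81 (SE 0.48, edgeR adjusted p = 2.46e-06). The control lineage went the same way, from 1.63 ± 0.431 in sperm to 0.258 ± 0.0793 CPM in morulae. At 29100001 to 29101000 of chromosome 10, morulae held 3, 7 and 0 counts and sperm 114, 114, 142 and 71 counts (log2 difference -4.01, SE 0.53). At 5415001 to 5416000 of chromosome 17, morulae held 3, 2 and 4 counts and sperm 101, 76, 90 and 44 counts (log2 difference -3.61, SE 0.49). The last pair were also lower past the test in the control lineage, by smaller log2 differences of -2.20 and -1.28. These windows were chosen for this gap, so their size is a description.

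The gained windows named are those with the widest gap between the lowest morula library and the highest sperm library. Their mean sperm signal was 0.102, 0.117 and 0.0682 CPM, at most 0.5 times the median window as the rule for low windows asks, although sperm replicate 4 held 10, 7 and 7 counts in them, above its median of 6 per window. At 181001 to 182000 of chromosome 8, morulae held 695, 516 and 645 counts and sperm 4, 7, 1 and 10 counts, or 15.7 ± 2.88 CPM (n = 3) against 0.102 ± 0.132 CPM (n = 4), a log2 difference of 7.86 (SE 0.48). At 19485001 to 19486000 of chromosome 20, morulae held 419, 317 and 372 and sperm 10, 13, 6 and 7 counts (log2 difference 6.46, SE 0.38). At 6372001 to 6373000 of chromosome 5, morulae held 224, 152 and 217 and sperm 3, 4, 0 and 7 counts (log2 difference 6.87, SE 0.50). In all 3 windows the CPM was lowest in replicate 2 among morulae and highest in replicate 4 among sperm. The share of counts on the mitochondrial genome was ordered likewise at these ends: 0.0608%, 0.0491% and 0.0577% in morulae and 0.00129%, 0.00187%, 0.000905% and 0.00453% in sperm. The part of mitochondrial reads in these windows was not tested.

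Classes of windows show how the difference followed the level of signal, and how far that depended on the tissue that formed the classes. These 10 equal classes were formed from control-lineage libraries and measured in DDT-lineage libraries, so that no library did both. By control sperm signal the difference ran steadily from higher to lower. In class 1, the lowest, all windows together had 0.0925 ± 0.00442 CPM in morulae and 0.0157 ± 0.000898 CPM in sperm. In class 5 the values were 0.303 ± 0.0117 and 0.231 ± 0.0244, and in class 9 they were 0.444 ± 0.00138 and 0.656 ± 0.0129 CPM. From class 2 to class 9 the sperm mean thus rose from 0.0665 to 0.656 CPM and the morula mean from 0.228 to 0.444 CPM. The median log2 difference over tested windows was 2.46 in class 1, 0.19 in class 5 and -1.08 in class 10. In class 1 only 21.0% of windows held enough counts to be tested, and such windows passed mostly through their morula counts, so the median there is no measure of the class as a whole.

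The highest sperm class was mixed. Its mean was 0.998 ± 0.0694 CPM in morulae and 1.26 ± 0.123 CPM in sperm, with sperm replicate 4 at 1.43 and the other 3 between 1.15 and 1.24. The exact permutation p for its share of counts was 0.0571 (adjusted p = 0.0762 over 20 shares), so the class was not past the test as a whole. Within it 61.2% of windows were lower and 6.38% higher past the test, against 17.1% and 18.5% of all tested windows. Of the windows in the highest class of control sperm, 79.6% were also in the highest of 10 classes formed from DDT sperm and 49.8% in that of DDT morulae. Of the windows in the lowest class of control sperm, 82.6% were also in the lowest class of DDT sperm and 64.8% in that of DDT morulae. As a measure of how well morula libraries rank windows, 81.3% of the highest and 74.0% of the lowest class of control morulae were found in the same class of DDT morulae.

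By control morula signal the trend was weaker and did not hold to the top. The medians fell from 0.51 in class 2 to -0.50 in class 9, and then stood at 0.04 in class 10. There 22.4% of windows were higher and 22.0% lower past the test, against 18.5% and 17.1% of all tested windows. In class 9 morulae had 0.421 ± 0.00942 CPM and sperm 0.570 ± 0.0285 CPM. In class 10 the values were 1.19 ± 0.0927 and 1.09 ± 0.0911 CPM, with 1.13 to 1.30 CPM in single morula and 1.03 to 1.22 CPM in single sperm libraries. The groups overlapped, and the exact permutation p for the share of counts in this class was 0.143. The median of the lowest minus that of the highest class was 3.55 by sperm signal and 0.30 by morula signal. The second of these changed sign under 5 of the other settings. The gap was 2.17 with classes formed by the mean of both tissues, which were added after seeing the data. These gaps use class 1, where only 21.0%, 29.4% and 20.5% of windows were tested by sperm, morula and both. They thus leave out most of that class. In class 2 by sperm signal, with 84.9% tested, the median was 1.62. Of the 20 class shares by sperm or morula, 13 reached the smallest exact p of 0.0286 (adjusted p = 0.0440). The shares of classes by the same tissue sum to a whole, so these are not separate tests. Windows kept their end class of control sperm more often in DDT sperm than in DDT morulae. Shares of those classes thus partly follow from how the classes were formed.

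Over 100 kb bins, whose counts are large, the choice of the classifying tissue changed the shape of the pattern. These classes, also added after seeing the data, held 23423 bins with at least 90 windows that held a count. By control sperm the median log2 difference fell from 0.44 in class 1 to -0.66 in class 10. Class 1 had 28.0 ± 0.683 CPM per bin in morulae and 20.1 ± 0.738 in sperm, and class 10 had 48.9 ± 0.682 and 60.1 ± 1.60. By control morula the pattern was highest at both ends: 0.17 in class 1, -0.38 in class 6 and 0.34 in class 10. In the bins richest in morula signal, morulae had 64.6 ± 3.15 CPM per bin against 49.3 ± 3.55 in sperm, and 75.2% passed the test as higher, against 37.5% of all bins. In class 6, with 33.6 ± 0.796 against 41.8 ± 1.47 CPM per bin, 67.3% were lower, against 39.6% of all bins.

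**Figure D3:**
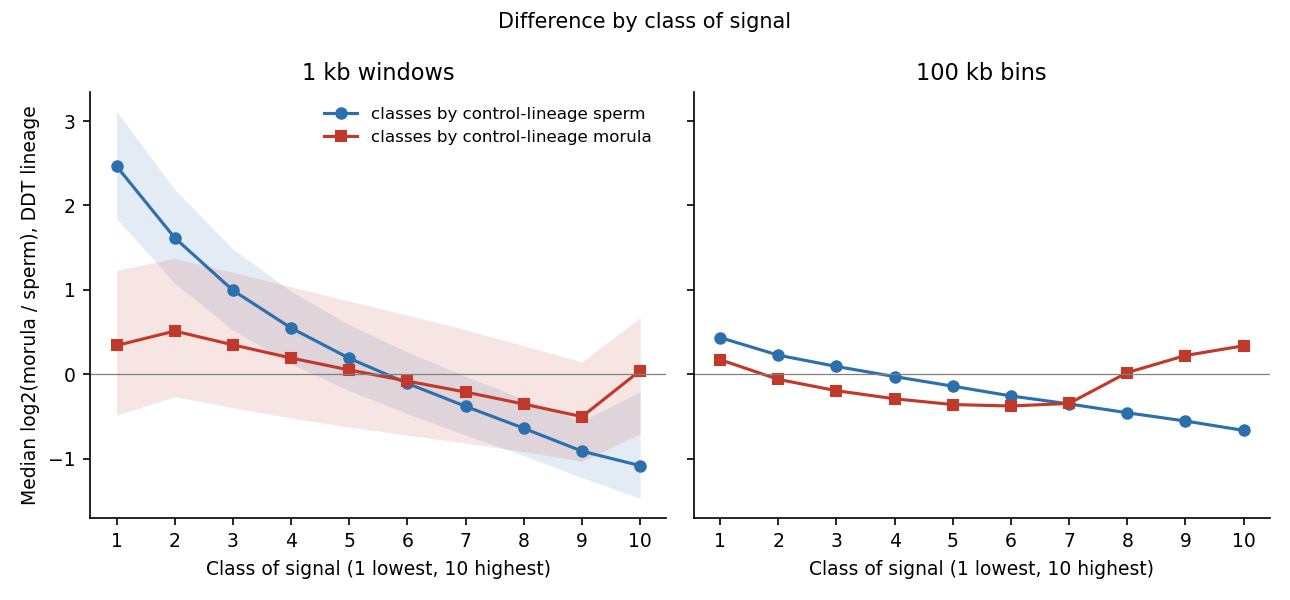
Median log2(morula / sperm) in the DDT lineage by class of signal, for 1 kb windows (left, shaded from the 25th to the 75th percentile) and 100 kb bins (right), with classes formed from control-lineage sperm (blue circles) or control-lineage morulae (red squares). The blue lines fall throughout, from 2.46 to -1.08 and from 0.44 to -0.66, while the red line of bins turns upward to 0.34 in class 10. For windows, class 1 rests on the 21.0% (by sperm) or 29.4% (by morula) that were tested.

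Differences also extended over wide domains. Windows past the test were joined into runs where they had the same direction and no more than 1 kb between them, and 58.2% of runs were single windows in either direction. Runs of at least 10 such windows numbered 1264 among the higher ones, covering 24.4 Mb, and 1800 among the lower ones, covering 28.5 Mb. Higher wide runs stood at a median of 0.764 times the median window in sperm and 2.73 times in morulae. Lower wide runs stood at 2.67 times in sperm and 1.11 times in morulae. By library, the higher runs stood at 0.741 to 0.786 times the median window in sperm replicates 1 to 3, at 1.00 times in sperm replicate 4 and at 2.5 to 3.1 times in morulae. They thus went from at or below the general level of sperm to well above that of the embryo, whereas the lower ones came down to about that level. Higher runs reached further: 270 of them held at least 20 windows and 32 at least 50, against 105 and 0 of the lower runs. In the control lineage the median log2 difference had the same sign in each of the 1264 and 1800 runs.

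The number of wide runs changed strongly when 1 library was left out. Without sperm replicate 4 there were 2667 higher and 4254 lower wide runs. Without morula replicate 1, 2 or 3 there were 676, 730 and 754 higher and 271, 219 and 204 lower ones, and without sperm replicate 1, 2 or 3 there were 501, 654 and 1168 lower ones. Of the gained windows, 56.8% lay in higher wide runs, which cover 0.932% of autosomal windows. Lower wide runs cover 1.09% of windows and held 1.23% of the kept and 6.89% of the lost ones. The rules for gained windows and for runs use the same counts, so these shares are a description.

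The 5 widest higher runs had morula means of 0.950 to 1.23 CPM per window. The widest covered 133 kb at 10767001 to 10900000 of chromosome 8, with 0.997, 0.969 and 0.883 CPM in morulae and 0.265, 0.241, 0.292 and 0.250 CPM in sperm. The groups were far apart, and the control lineage had nearly the same means, 0.911 ± 0.0265 and 0.254 ± 0.0168 CPM (n = 3 each). On chromosome 3 a run of 120 kb, 96304001 to 96424000, had 0.961 ± 0.0723 CPM in morulae and 0.289 ± 0.0298 in sperm. A run of 108 kb on chromosome 9, 21947001 to 22055000, had 1.06 ± 0.0603 and 0.265 ± 0.0197 CPM. Runs on chromosome 13 (108 kb, 19385001 to 19493000) and chromosome 7 (107 kb, 53459001 to 53566000) began from more sperm signal, 0.442 ± 0.0566 and 0.410 ± 0.0350 CPM, and had 1.23 ± 0.0406 and 1.23 ± 0.0294 CPM in morulae.

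The 5 widest lower runs went from 0.692 to 0.875 CPM per window in sperm to a nearly common level in morulae. At 7544001 to 7602000 of chromosome 20 (58 kb), morulae had 0.356, 0.340 and 0.339 CPM and sperm 0.813, 0.815, 0.727 and 0.596 CPM, with sperm replicate 4 lowest but above all morulae. The run of equal width at 12033001 to 12091000 of chromosome 17 had 0.341 ± 0.0315 CPM in morulae and 0.759 ± 0.0340 in sperm. The others were at 27776001 to 27824000 of chromosome 4, with 0.330 ± 0.0174 and 0.692 ± 0.0858 CPM, at 15820001 to 15866000 of chromosome 9, with 0.346 ± 0.0181 and 0.779 ± 0.0645 CPM, and at 9519001 to 9563000 of chromosome 20, with 0.328 ± 0.0190 and 0.875 ± 0.0362 CPM. Morula means of the 5 runs thus lay between 0.328 and 0.346 CPM, near the embryo's median window of 0.287 CPM, while those of the 5 higher runs lay between 0.950 and 1.23 CPM.

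**Figure D4:**
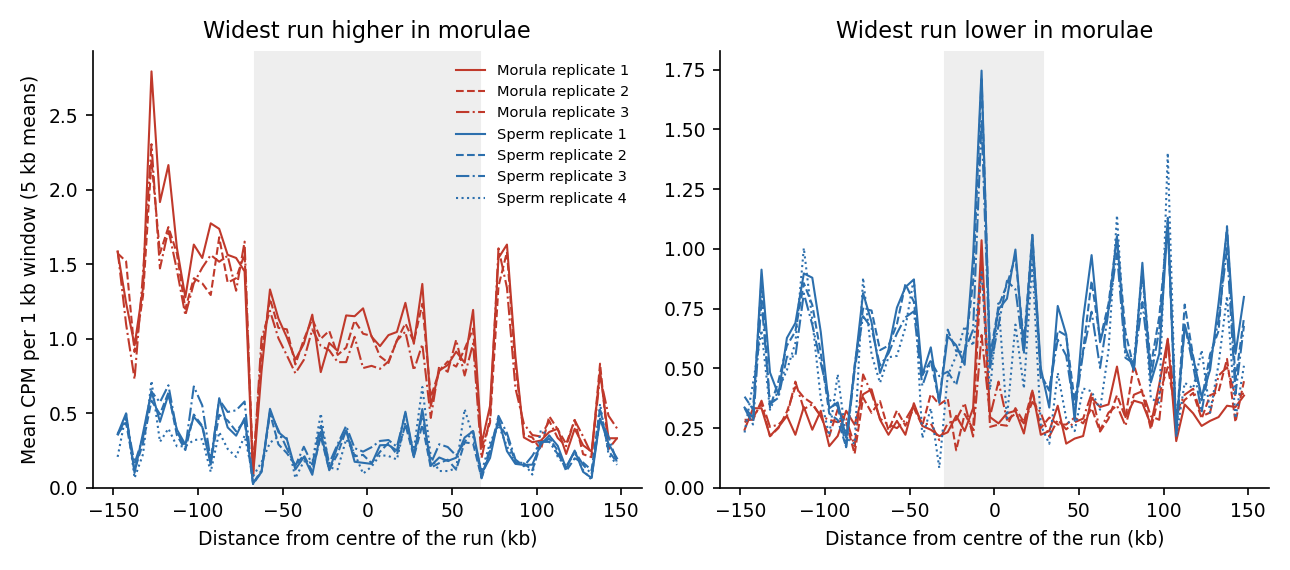
Mean CPM per 1 kb window, in steps of 5 kb, around the widest higher run (left, 133 kb) and the widest lower run (right, 58 kb), for 3 morula (red) and 4 sperm (blue) libraries of the DDT lineage, with the run shaded. In the higher run the morula libraries average 0.883 to 0.997 CPM and the sperm libraries 0.241 to 0.292 CPM, and the gap goes on to the left of the run. In the lower run the morula libraries average 0.339 to 0.356 CPM and the sperm libraries 0.596 to 0.815 CPM.

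Sums over 100 kb bins do not need windows to pass one by one, and by edgeR 9824 of 26171 bins (37.5%) were higher and 10359 (39.6%) lower in morulae. Most differences were small: 82.9% of bins lay within 1.5-fold, and the called bins had medians of 0.38 and -0.46 on the log2 scale. At least 2-fold differences were found in 271 higher and 59 lower bins, of which 266 and 59 were also past the test in the same direction in the control lineage. Over all called bins 7745 higher and 9033 lower ones were past it there too, and 0 were opposite. The share of all bins that passed in the control lineage is not given here, so these overlaps are a description.

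The bins with the largest differences were chosen among those whose groups did not overlap. Highest was the bin at 22100001 to 22200000 of chromosome 7, with a log2 difference of 2.32 (SE 0.42), but it had 1.25 ± 0.214 CPM in morulae and only 2 windows with enough counts. Few windows also carried the bins at 115200001 to 115300000 of chromosome 2 (2.08, SE 0.11, 15 windows tested) and at 118600001 to 118700000 of chromosome 1 (2.01, SE 0.10, 30 windows). The bin at 16800001 to 16900000 of chromosome 6 was covered nearly throughout, with 87 of 91 tested windows past the test as higher. It had 110, 96.5 and 94.6 CPM in morulae and 24.8, 23.4, 26.5 and 21.6 CPM in sperm, a log2 difference of 2.03 (SE 0.08, edgeR adjusted p = 5.50e-07). The control lineage had 97.3 ± 3.25 and 23.6 ± 1.81 CPM in this bin. At 21700001 to 21800000 of chromosome 9, morulae had 53.0 ± 6.05 and sperm 12.7 ± 1.24 CPM, with 59 of 64 tested windows higher.

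The lowest bins were full ones, with all 100 windows tested. At 9500001 to 9600000 of chromosome 20, morulae had 32.7, 32.8 and 34.1 CPM and sperm 84.4, 81.1, 75.3 and 74.7 CPM, a log2 difference of -1.27 (SE 0.07). This bin holds the lower run at 9519001 described above. It was followed by the bins at 37900001 of chromosome 9 (-1.21, SE 0.09), 103800001 of chromosome 15 (-1.15, SE 0.08), 46400001 of chromosome 12 (-1.14, SE 0.09) and 38000001 of chromosome 9 (-1.13, SE 0.15). Between 62 and 74 windows of each of these 5 bins were lower past the test. Sperm replicate 4 was the lowest sperm library in all 5, at 47.9 CPM against 67.1 to 75.9 CPM in the other sperm libraries for the bin at 38000001 of chromosome 9.

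Adjacent bins of the same direction joined into domains of megabases. Runs of at least 5 bins numbered 571 among the higher ones, covering 708 Mb, and 608 among the lower ones, covering 740.1 Mb. The longest higher domains spanned 7.0 Mb at 107200001 to 114200000 of chromosome 1 (34.0 ± 0.234 CPM per bin in morulae, 24.4 ± 2.03 in sperm), 6.4 Mb at 92700001 to 99100000 of chromosome 14 (56.8 ± 1.80 and 37.3 ± 2.12) and 6.4 Mb at 86800001 to 93200000 of chromosome 5 (38.5 ± 0.344 and 26.8 ± 2.16). The longest lower domain was 11.2 Mb at 150100001 to 161300000 of chromosome 5, with 32.3, 33.5 and 33.5 CPM per bin in morulae and 53.4, 53.0, 50.9 and 46.3 CPM in sperm. Of its 112 bins, 110 were also lower past the test in the control lineage. A lower domain of 7.7 Mb at 5500001 to 13200000 of chromosome 20 (32.2 ± 0.585 and 52.0 ± 4.71 CPM per bin) holds both lower runs named on that chromosome. Another of 6.4 Mb lay at 22000001 to 28400000 of chromosome 12 (32.9 ± 0.769 and 50.8 ± 0.848). Morula levels in the 3 lower domains were within 32.2 to 33.1 CPM per bin, whereas in the 3 higher domains they ranged from 34.0 to 56.8.

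Chromosomes leaned to different sides. Chromosome 12 had 77.7% of its bins lower and 15.2% higher in morulae, and chromosome 10 had 62.8% lower and 14.6% higher. Chromosomes 19 and 20 had 58.7% and 55.7% lower, with 21.5% and 23.3% higher. Chromosome 2 leaned the other way, with 50.3% higher and 26.5% lower. The median window of sperm was 0.358 CPM on chromosome 12, 0.309 on chromosome 10 and 0.227 on chromosome 2, while the morula medians of the same chromosomes were 0.296, 0.295 and 0.285 CPM. The share of windows high in sperm that was kept ran from 18.6% on chromosome 10 to 38.1% on chromosome 2. Gained windows were unevenly spread: they made up 0.381% of the windows of chromosome 15, 0.309% of chromosome 1 and 0.307% of chromosome 12, but 0.0376% of chromosome 11 and 0.0435% of chromosome 10. By bins, 12 of the 20 autosomes had more lower than higher calls, and by windows 6 had. The number by bins depended on the setting: it was 8 with library-size scaling, 10 without sperm replicate 4, 13 with DESeq2 size factors and with DESeq2, and 17 with the abundance-trend offset. By windows, chromosomes 10, 12 and 20 leaned lower under TMM, library size, DESeq2 size factors, DESeq2, the abundance-trend offset and without sperm replicate 4. Chromosome 19 did so in all but the offset, and chromosomes 8 and 17 turned with library size, DESeq2 size factors, DESeq2 and the offset.

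**Figure D5:**
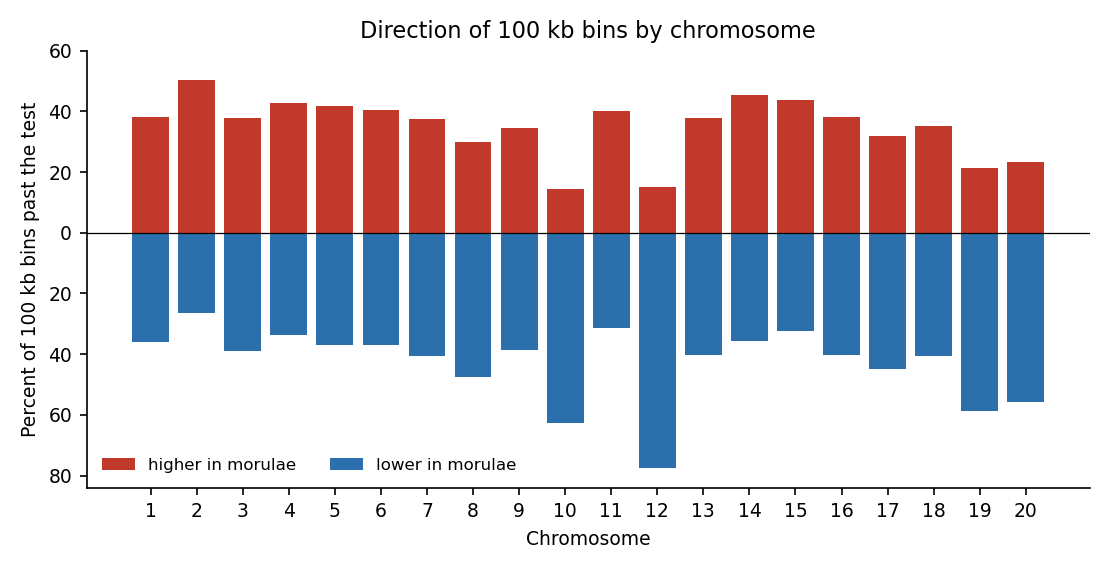
Percent of 100 kb bins past the test as higher (red, upward) or lower (blue, downward) in morulae than in sperm of the DDT lineage, for each autosome. Chromosome 12 reaches 77.7% lower and chromosome 10 reaches 62.8%, while chromosome 2 has the most higher bins (50.3%).

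Whether the change from sperm to embryo itself differed between the exposed and the control lineage was tested with the interaction of tissue and lineage over all 13 libraries. By edgeR 0 of 2434451 windows (0.0%) passed, with 137146 (5.63%) at an unadjusted p under 0.05 and a smallest adjusted p of 0.869. Of 26171 bins 0 (0.0%) passed, with 604 (2.31%) at an unadjusted p under 0.05 and a smallest adjusted p of 1.00. No other tool was run on the interaction. Of the windows tested in both lineages, 248913 were higher in morulae in both, which is 56.9% of those of the DDT and 71.5% of those of the control lineage. Another 212569 were lower in both, 52.6% and 67.5%. No window, run or bin above can therefore be called particular to the DDT lineage. A p that misses the threshold does not show that the lineages were alike.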

How the data were processed

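The authors deposited raw read counts per 1000 bp window, per the file headers, on the genome build Rnor_6.0. FastQC and Trimmomatic, Bowtie2 and SAMtools, and edgeR are listed with no version in the submitters' processing notes, which give no order of use. Whether duplicate reads were removed is not given in the sources used here. The authors also deposited an edgeR log2 fold change and an adjusted p-value per window. Their 13 RPKM columns were not used.

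Windows whose counts summed to 35 or more over the 7 libraries (5 per library) were tested with edgeR 4.0.16 in R 4.3.3 (quasi-likelihood test, TMM scaling, two-sided, 3 morula against 4 sperm libraries, no covariate). Benjamini-Hochberg adjustment ran over the whole table, X, Y and the mitochondrial genome included, and only autosomes are printed. The same test was run on sums over 100 kb bins. Classes, fates, runs and named regions followed written rules: the 5 widest runs and 5 bins of largest difference per direction, the 3 longest bin runs, and 3 lost, gained and kept windows each. The members and lists were chosen with earlier results of these data known. Standard errors come from the effect and its test. The morula and sperm replicate numbers were not taken as pairs. CpG content and gene annotation were not analysed here. DESeq2 1.42.0 was an alternative. Counting error is largest in the shallow libraries. The median count per autosomal window was 6 in sperm replicate 4, 10 to 12 in morulae and 27 to 35 in sperm replicates 1 to 3.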

Additional observations from a re-analysis of the deposited data

Results flagged for a closer look

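Of 58 sets of 4 sperm values checked for 1 library far from the other 3, 12 were so. In each it was DDT sperm replicate 4. Chance alone would mark about 1 independent set in 20. These sets are not independent, as shares of classes by the same tissue sum to a whole, so the 12 cannot be set against that rate. In DDT sperm replicate 4, 11.0% of autosomal windows held no count, against 5.46% to 5.85% in the others. At equal depth the shares were 11.8% and 9.69% to 10.4%. Also at equal depth, the 10% of windows with the highest counts held 44.7% of the replicate's counts, against 34.2% to 35.9%. Its share of counts was 12.7% in class 8 by control sperm signal, against 13.6% in each of the others. By control morula signal its shares were 1.41% in class 1, 8.11% in class 6, 9.33% in class 7, 11.1% in class 8, 14.3% in class 9 and 33.2% in class 10. The others had 1.20% to 1.23%, 8.77% to 8.87%, 10.2% to 10.3%, 12.2% to 12.3%, 15.7% to 15.8% and 27.8% to 28.5%. The lost window at 29100001 of chromosome 10 had 2.11 CPM in this library against 1.02 to 1.11, and the kept windows at 87857001 of chromosome 8 and 12073001 of chromosome 7 had 4.72 and 4.45 CPM against 3.15 to 3.23 and 3.13 to 3.25. Control sperm replicate 3, the shallowest of the 13 libraries, had similar values. At equal depth 12.3% of its autosomal windows held no count, and the 10% of windows with the highest counts held 44.7% of counts. The other control sperm libraries had 8.01% to 8.82% and 33.0% to 33.1%. What sets DDT sperm replicate 4 apart from the other DDT sperm libraries was not tested.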

How the results depend on the processing

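Bin counts and bin runs stayed within 1.5 times of their values under each alternative run. The lineage comparison was fitted in 1 way only. The gained window at 181001 of chromosome 8 is among the 0.1% of windows with the highest counts, and has no value without them. Counts of windows did not. Windows higher and lower numbered 258374 and 249197 with at least 10 counts per library, 250018 and 245897 at equal depth, 172188 and 97617 with the abundance-trend offset, and 258087 and 253791 by the authors' deposited adjusted p; leaving out 1 library gave 232159 to 518094 lower windows. Wide lower runs numbered 841 with library-size scaling, 545 by DESeq2, 349 with at least 10 counts per library, 220 at equal depth and 9 with the offset; leaving out 1 library gave 204 to 4254. Wide higher runs numbered 2246 with a minimum total of 1 and 807 at equal depth; leaving out 1 library gave 676 to 2667. With no gap and with gaps of up to 3 kb there were 546 and 4262 higher and 263 and 6631 lower wide runs. The gap between classes by sperm signal was 3.12 with at least 10 counts per library, 1.49 with the offset, 2.74 and 4.45 with 5 and 20 classes, and 4.14 with classes from the DDT lineage's own sperm. That by morula signal was 0.67 with a minimum total of 1 and 0.72 with 5 classes. It turned to -0.37 with at least 10 counts per library, -0.16 at equal depth, -1.05 with the offset, -1.58 with 20 classes and -0.69 with the lineage's own morulae. The cause of these shifts was not tested. With at least 10 counts per library, which leaves fewer windows, 908 were lost and 16980 low in both. At 1.5 times the median 360492 windows were kept, 28249 lost, 27106 gained and 393509 low in both, and at 3 times 90048 were kept, 15 lost and 514 gained. The control lineage had 1143 lost windows, and leaving out 1 DDT library gave 1620 to 5321. Deviations of same-numbered sperm and morula libraries correlated at 0.193, 0.0906 and 0.103 over bins, and each library correlated best with its own number, which is a hint from the data and not from the design. With the replicate number as a block, which also leaves out sperm replicate 4, 547251 windows were higher and 505759 lower, with 2598 higher and 3975 lower wide runs; without that library and with no block, wide runs numbered 2667 and 4254. Depth limits the low end: windows with few counts were not tested.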

Other observations

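The log2 difference between embryo and sperm was most alike in windows that touch, and a weaker correlation remained at larger distances. Across pairs of tested autosomal windows, which are not independent replicates, the log2 differences correlated at 0.367 at a distance of 1 kb, 0.215 at 2 kb, 0.175 at 10 kb, 0.140 at 100 kb and 0.0865 at 1000 kb. A window next to a higher one was higher in 35.3% of cases and lower in 5.68%. At 1000 kb these shares were 21.3% and 14.1%, closer to the 18.5% and 17.1% of all tested windows. A window next to a lower one was lower in 35.7% of cases. Whether a read that spans a window border was counted on both sides is not given in the sources used here, so the value at 1 kb is no measure of domains.

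The highest counts did not scale with depth. The highest count of an autosomal window was 1653 to 1682 in DDT morulae and 1633 to 1788 in DDT sperm, although totals ranged from 33684143 to 128386419, and 13 autosomal windows held at least 1000 counts in each of the 7 libraries.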
